A study of Homo sapiens with 6 samples.

Results

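The transcripts of 10 genes that restrain or modulate ERK signalling were followed in HT29 cells during histidine or tryptophan depletion. The genes were chosen by name, DUSP1, DUSP2, DUSP4, DUSP5, DUSP6, DUSP10, SPRY2, SPRY4, SPRED1 and IER3, and each name matched 1 of the 60676 gene identifiers in the data through gencode release 44. HT29 is a line from a human colon adenocarcinoma that carries an activating BRAF mutation, and the labels give its genotype as WT in every sample. Cells were kept for 48 h in control medium (untreated), in medium lacking histidine or in medium lacking tryptophan, with 2 RNA samples each and 6 libraries in all. Medium lacking histidine was prepared from RPMI and medium lacking tryptophan from a DMEM mixture, both with dialyzed serum. The base and the serum of the control medium are not given for these RNA samples in the sources used here. For protein measurements in the same study, full RPMI was the control for both depletions. The effect of a missing amino acid and that of its base medium cannot be told apart. Against untreated cells, the same holds for dialyzed serum if the control had other serum.

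ERK is the last kinase of the Ras, RAF, MEK and ERK relay through which growth factor receptors drive proliferation. Active ERK switches on genes whose products turn the relay down again, so the transcripts of this feedback are widely read as a gauge of ERK output. Dual-specificity phosphatases (DUSP) remove phosphate from both the threonine and the tyrosine of the activation loop of ERK, JNK or p38, whereas Sprouty and Spred proteins act upstream, between the receptor, Ras and RAF. In tumour cells with mutant BRAF this feedback is typically kept high by the constant ERK activity.

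Reads recovered from the deposited normalized counts numbered 46390819 to 64388876 per library. Of the markers of colon epithelium, KRT8, KRT18 and EPCAM were abundant in each library, and the summed count of 9 such markers ran from 394456 to 420142 in untreated, 565772 to 596743 in histidine-depleted and 571956 to 574712 in tryptophan-depleted libraries. KRT8 took the largest part of this sum, and the markers did not move together. Under histidine depletion 5 of the 9 were higher and 4 lower, the latter being KRT18 (log2 fold change -0.52), VIL1 (-0.13), CDX2 (-1.37) and CDX1, which had 0 reads in both depleted libraries, and under tryptophan depletion 5 were higher and 2 lower (limma). Over all tested genes 39.1% were higher and 38.2% lower under histidine depletion, and 36.1% and 34.8% under tryptophan depletion. The rises among these markers were led by KRT20, with 1.74 and 2.38 under histidine and tryptophan depletion, and KRT19 had 1.55 and 0.67. The 4 mast cell markers together had at most 0.903 scaled counts in any library, the 5 leukocyte markers 8.54 to 109 the 5 fibroblast markers 30.7 to 73.6 and the 3 endothelium markers 26.6 to 55.7. Of the last, VWF rose from 5.81 to 41.6 scaled counts under histidine depletion (log2 fold change 2.7, limma adjusted p = 6.03e-07), while PECAM1 fell from 42.4 to 8.64 (-2.15, limma adjusted p = 2.95e-06). The part of these markers in the results was not tested. Replicates differed by more than counting noise, with a chi-square per degree of freedom of 9.52 for untreated, 4.41 for histidine-depleted and 1.93 for tryptophan-depleted libraries. The labels do not say whether replicates came from separate cultures, so the p-values measure the spread between these samples, which may be technical.

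Levels are given below as jointly scaled counts, which are the recovered reads of the 6 libraries divided by size factors computed over all of them. Each change against untreated cells is a log2 fold change on log2(normalized count + 1) within the table of that depletion, tested with limma and adjusted by Benjamini-Hochberg over all tested genes, with a threshold of 0.05. In RNA from a whole culture, fewer cells that use a gene and less RNA per cell cannot be told apart.

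The 10 genes did not move as a group. Histidine depletion raised DUSP1 and DUSP5 by 7.98-fold and 8.00-fold and DUSP10 by 18.1-fold, raised DUSP6 and SPRY4 by smaller amounts, and lowered SPRY2 and DUSP4. Tryptophan depletion raised DUSP1 and DUSP5 less, raised SPRED1 slightly, and lowered DUSP2, DUSP4, DUSP6, SPRY2 and SPRY4. IER3 was at nearly the same count in every library.

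All 10 genes passed the filter on low counts in each comparison. After histidine depletion 5 were higher and 2 lower, against 39.1% of all tested genes higher, 38.2% lower and 77.3% in either direction (limma). Since most tested genes passed this test, the count of genes past it is close to the background, and the size of a change says more. With an added requirement of at least a 2-fold change, 3 of the 10 were higher and 0 lower, against 16.4% and 16.1% of tested genes. After tryptophan depletion 3 were higher and 5 lower, against 36.1% and 34.8% of tested genes and 70.8% in either direction. At least 2-fold, 2 were higher and 0 lower, against 10.0% and 10.4%. The counts of 0 at 2-fold were also 0 at an unadjusted p under 0.05, with edgeR and with DESeq2. The median log2 fold change of the 10 genes was 0.20 after histidine and -0.27 after tryptophan depletion, beside 0.010 and 0.013 over all tested genes.

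**Figure D1:**
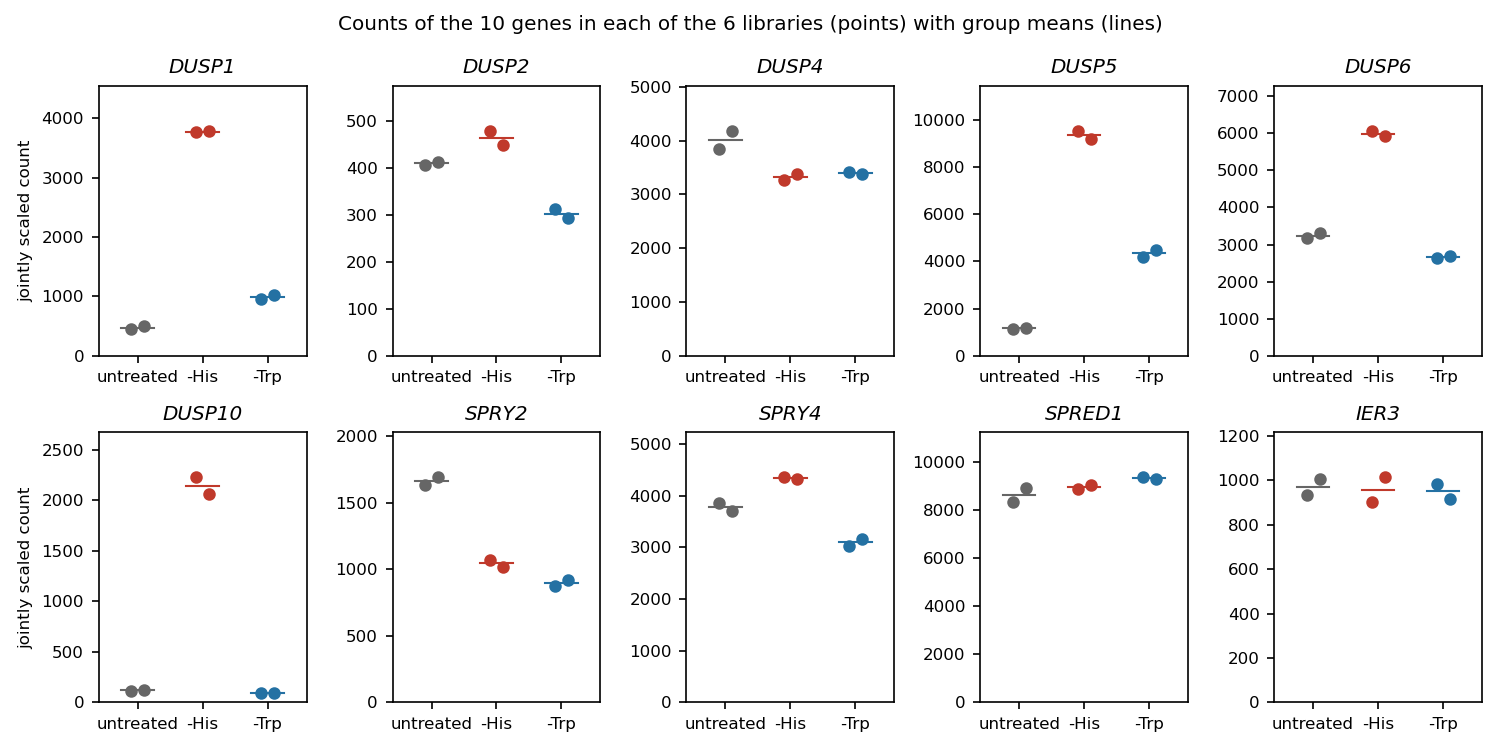
Jointly scaled counts (vertical axes from 0, one scale per gene) of the 10 genes in untreated, histidine-depleted (-His) and tryptophan-depleted (-Trp) libraries, with a point for each of 2 libraries and a line for their mean. DUSP1, DUSP5 and DUSP10 stand far above the untreated level after histidine depletion, and the points of IER3 overlap across conditions.

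DUSP1, an inducible nuclear phosphatase that acts on p38 and JNK as well as ERK (ENSG00000120129, chromosome 5 of GRCh38, 172768096 to 172771195, minus strand), had 449 and 502 scaled counts in the untreated libraries, 3764 and 3785 without histidine and 965 and 1017 without tryptophan. The 3 conditions were apart, with the histidine-depleted libraries highest. Its log2 fold change was 3.0 under histidine depletion (standard error 0.0649, limma adjusted p = 5.82e-22), or 7.98-fold. Under tryptophan depletion it was 1.05 (standard error 0.0735, limma adjusted p = 4.62e-28), and 0.97 without untreated replicate 1.

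DUSP5, a nuclear phosphatase that prefers ERK (ENSG00000138166, chromosome 10, 110497907 to 110511533, plus strand), had 1155 and 1199.5 scaled counts in untreated cells, 9526 and 9207 without histidine and 4190.5 and 4487 without tryptophan. Here too the conditions did not overlap, and both depletions lay above untreated cells. The log2 fold change was 3.0 (standard error 0.0524, limma adjusted p = 1.19e-23) under histidine depletion and 1.87 (standard error 0.0524, limma adjusted p = 1.45e-69) under tryptophan depletion. The annotation holds 2 pseudogenes of its name, with which reads could be shared.

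DUSP10 prefers JNK and p38 over ERK, so among the 6 phosphatases it is the member least tied to ERK itself. The gene (ENSG00000143507, chromosome 1, 221701424 to 221742089, minus strand) had 116 and 120.4 scaled counts in untreated libraries, 2225 and 2057 without histidine and 93.9 and 97.1 without tryptophan. Only histidine-depleted libraries were high, and the tryptophan-depleted ones lay a little under the untreated ones. The log2 fold change under histidine depletion was 4.18 (standard error 0.0843, limma adjusted p = 1.65e-22), or 18.1-fold, the 134th largest increase among the 18288 tested genes. Under tryptophan depletion it was -0.31 (95% interval -0.63 to 0.012, limma adjusted p = 0.0804) and did not pass the threshold, although it did in the fit on all 6 libraries (adjusted p = 0.00939) and in limma without the trend (adjusted p = 0.0165), between extremes of 0.00939 and 0.276 across settings.

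The promoters of DUSP1 and DUSP10, which rose together under histidine depletion, and of SPRY2, which fell, are shown because the factors that bind cyclic AMP response elements, AP-1 sites and ETS sites include targets of the MAP kinases. The 250 bases before the outermost start in RefSeq (GRCh38.p14) are printed 5′ to 3′ on the minus strand, from chr5:172771196-172771445, chr1:221742090-221742339 and chr13:80341127-80341376. Capitals mark a match, on either strand, to the cyclic AMP response element TGACGTCA, its half-site TGACG, which lies within it, the AP-1 site TGANTCA, the composite site of ATF4 and C/EBP factors TGATGNAA, or the ETS site CCGGAA.

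DUSP1: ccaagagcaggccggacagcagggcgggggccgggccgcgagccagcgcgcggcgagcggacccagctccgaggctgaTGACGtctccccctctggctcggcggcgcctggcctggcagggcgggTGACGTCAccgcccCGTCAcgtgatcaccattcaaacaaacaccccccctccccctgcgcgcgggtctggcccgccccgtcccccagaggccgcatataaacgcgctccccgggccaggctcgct

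DUSP10: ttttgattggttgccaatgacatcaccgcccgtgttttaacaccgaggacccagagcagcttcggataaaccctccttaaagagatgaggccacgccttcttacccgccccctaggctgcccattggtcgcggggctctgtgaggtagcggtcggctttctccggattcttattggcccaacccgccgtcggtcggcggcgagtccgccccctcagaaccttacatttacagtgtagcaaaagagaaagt

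SPRY2: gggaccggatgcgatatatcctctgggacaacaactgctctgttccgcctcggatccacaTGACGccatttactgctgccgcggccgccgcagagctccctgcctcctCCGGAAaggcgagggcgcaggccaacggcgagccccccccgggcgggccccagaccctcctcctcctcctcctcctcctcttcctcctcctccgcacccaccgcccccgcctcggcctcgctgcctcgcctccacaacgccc

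DUSP1 held 1 full cyclic AMP response element, 125 to 118 bases before its start, a match that 1.75% of 27305 promoters of this length hold. It held 2 further half-sites, from 172 and 111 bases before the start, and 21.6% of promoters hold the half-site. SPRY2 held a half-site from 190 bases and an ETS site from 142 bases before its start, the latter found in 14.8% of promoters. In the window of DUSP10 none of these 5 sets of letters occurs. AP-1 and composite sites, held by 6.57% and 3.19% of promoters, occur in none of the 3 windows. RefSeq lists 2 starts for DUSP10 and 3 for SPRY2, and which start was used in these cells is not known from gene counts. Of the other genes searched, SPRY4 held a half-site from 68 bases before its start, and DUSP2, DUSP6 and SPRED1 held no match. For DUSP4, DUSP5 and IER3 no promoter sequence was at hand, so they were not searched.

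DUSP2, a nuclear phosphatase known from activated lymphocytes (ENSG00000158050, chromosome 2, 96143169 to 96145440, minus strand), was among the least abundant members. It had 406 and 414 scaled counts in untreated libraries, 479 and 449.7 without histidine and 313 and 293 without tryptophan. The histidine-depleted libraries lay above and the tryptophan-depleted ones below the untreated libraries. The log2 fold change of 0.19 under histidine depletion did not pass the threshold (95% interval 0.0069 to 0.37, limma adjusted p = 0.0547), whereas with quantile normalization it was 0.42 (adjusted p = 0.000757, where other settings gave up to 0.293). Under tryptophan depletion its log2 fold change was -0.44 (standard error 0.0951, limma adjusted p = 1.63e-05). The summed count of the 5 leukocyte markers moved in the same order, with 79.8 to 99.5 in untreated, 98.7 to 109 in histidine-depleted and 8.54 to 14.7 in tryptophan-depleted libraries. Of these markers 3, 4 and 4 had 3 reads or fewer in both libraries of the group, and PTPRC, the pan-leukocyte marker CD45, had at most 2.13 scaled counts in any library. ITGAM made up most of the sum in untreated and histidine-depleted libraries.

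DUSP4, a nuclear phosphatase of ERK and JNK (ENSG00000120875, chromosome 8, 29333064 to 29350684, minus strand), had 3839 and 4180.4 scaled counts in untreated cells, 3272 and 3379 without histidine and 3411 and 3386 without tryptophan. Both depletions lay under untreated cells and close to each other. The log2 fold changes were -0.26 (standard error 0.0542, limma adjusted p = 0.000136) and -0.24 (standard error 0.0488, limma adjusted p = 3.77e-06).

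DUSP6, the cytoplasmic phosphatase that is specific for ERK and the member used most often as a measure of ERK output (ENSG00000139318, chromosome 12, 89347235 to 89352501, minus strand), had 3172 and 3314 scaled counts in untreated libraries, 6061 and 5916 without histidine and 2635 and 2684 without tryptophan. It rose in one depletion and fell in the other, with no overlap between conditions. The log2 fold change was 0.89 (standard error 0.0510, limma adjusted p = 5.55e-14) under histidine and -0.29 (standard error 0.0499, limma adjusted p = 7.55e-08) under tryptophan depletion. A gene on the opposite strand, ENSG00000274021, covers 28.6% of its exonic bases and had between 3 and 16 reads in any library, and whether strand was used in counting is not given in the sources used here.

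**Figure D2:**
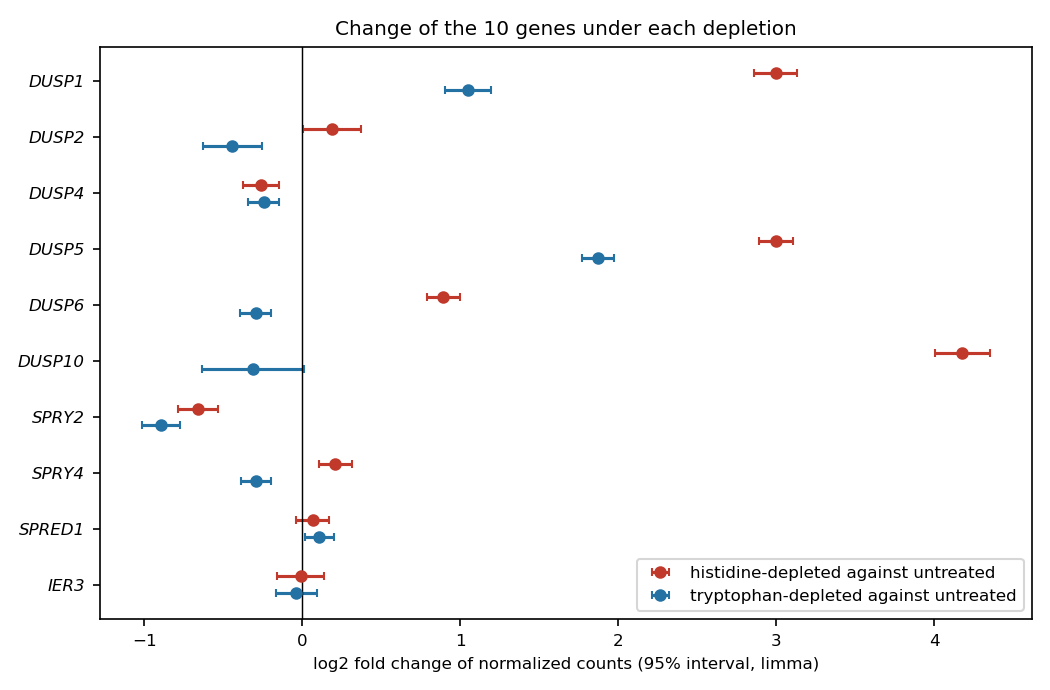
Log2 fold changes of normalized counts against untreated cells (horizontal axis) with 95% intervals from limma, for the 10 genes in histidine-depleted and tryptophan-depleted libraries. DUSP10 has the largest change under histidine depletion (4.18) and DUSP5 under tryptophan depletion (1.87). DUSP6 and SPRY4 lie on opposite sides of 0 and past the threshold in both depletions. DUSP2 and DUSP10 also lie on opposite sides, but not past the threshold in both.

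The Sprouty and Spred genes showed smaller changes than the induced phosphatases. SPRY2, which blocks the step from receptors to Ras and RAF (ENSG00000136158, chromosome 13, 80335976 to 80341126, minus strand), had 1629.7 and 1689.9 scaled counts in untreated libraries, 1069 and 1018 without histidine and 875 and 918 without tryptophan. Both depletions were lower than untreated cells, and tryptophan-depleted libraries were lowest. The log2 fold change was -0.66 (standard error 0.0620, limma adjusted p = 7.42e-10) under histidine and -0.90 (standard error 0.0604, limma adjusted p = 2.36e-29) under tryptophan depletion.

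SPRY4, which also acts at the level of Ras and RAF (ENSG00000187678, chromosome 5, 142310427 to 142326455, minus strand), had 3848 and 3706 scaled counts in untreated libraries, 4349 and 4328 without histidine and 3034 and 3167 without tryptophan. Its order across conditions was that of DUSP6, at a smaller size. The log2 fold change of 0.21 under histidine depletion (standard error 0.0505, limma adjusted p = 0.000639) became 0.074 with quantile normalization and no longer passed (adjusted p = 0.140, the largest over the settings). Under tryptophan depletion it was -0.29 (standard error 0.0490, limma adjusted p = 5.13e-08).

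SPRED1, which brings the Ras inactivator neurofibromin to the membrane (ENSG00000166068, chromosome 15, 38252836 to 38357249, plus strand), had 8351 and 8927 scaled counts in untreated libraries, 8912 and 9044 without histidine and 9374 and 9325 without tryptophan. Untreated and histidine-depleted libraries overlapped, and the tryptophan-depleted ones were highest. The change under histidine depletion was 0.065 (95% interval -0.040 to 0.17, limma adjusted p = 0.244), and with quantile normalization it turned to -0.18 (adjusted p = 0.000382). The rise of 0.11 under tryptophan depletion (standard error 0.0468, limma adjusted p = 0.0336) did not pass in 6 alternative settings, with an adjusted p from 0.082 to 0.323 in these and a change of 0.032 with quantile normalization and 0.059 without untreated replicate 1. The others were limma without the trend, no filter on low counts, and without tryptophan-depleted replicate 1 (0.11) or 2 (0.11).

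IER3, an immediate-early gene whose product is an ERK substrate and prolongs ERK phosphorylation (ENSG00000137331, chromosome 6, 30743199 to 30744548, minus strand), had 932 and 1008 scaled counts in untreated libraries, 904 and 1013 without histidine and 986 and 915 without tryptophan. All conditions overlapped. The change was -0.0087 under histidine depletion (95% interval -0.16 to 0.14, limma adjusted p = 0.918) and -0.037 under tryptophan depletion (95% interval -0.17 to 0.092, limma adjusted p = 0.625). Genes on the opposite strand cover 38.9% of its exonic bases, and both, IER3-AS1 and HCG20, had at most 5 reads in any library.

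Tryptophan depletion served the study as its control for general amino acid stress, so the depletions were also compared directly on the jointly scaled counts of all 6 libraries. Past the threshold, 7 of the 10 genes were called higher under histidine than under tryptophan depletion and 0 were called lower (limma). Of all tested genes 38.7% were called higher, 38% lower and 76.7% in either direction. At an unadjusted p under 0.05 the number lower was also 0, as with DESeq2, while edgeR called 1, SPRED1. At least 2-fold, 4 were higher and 0 lower, against 16% and 15.8%, and 0 were lower at 2-fold by each tool and at an unadjusted p under 0.05.

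DUSP10 differed most between the depletions, by 4.47 on the log2 scale (standard error 0.0953, limma adjusted p = 7.96e-17), or 22.2-fold, the 82nd largest excess of histidine over tryptophan depletion among 18264 tested genes. DUSP1 followed with 1.93 (standard error 0.0607), DUSP6 with 1.17 (standard error 0.0422) and DUSP5 with 1.11 (standard error 0.0455). The difference was 0.61 for DUSP2, 0.49 for SPRY4 and 0.22 for SPRY2. The SPRY2 value means that its decrease was smaller under histidine depletion (limma adjusted p = 0.00202). DUSP4, SPRED1 and IER3 did not pass, with 95% intervals from -0.13 to 0.067, -0.14 to 0.028 and -0.13 to 0.16.

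Dividing the scaled counts by exonic length allowed levels to be compared roughly between genes. This length merges all annotated exons of a gene and can exceed that of the transcript in use. The order, shares and sums below therefore also depend on the annotation. In untreated cells SPRED1 was highest with 1115 ± 52.6 scaled counts per kb (SD, n = 2), followed by DUSP6 with 840.4 ± 26.1 and IER3 with 718 ± 39.4. SPRY4, DUSP4, SPRY2 and DUSP5 lay between 576 and 464, and of these neighbours the ranges of SPRY4 and DUSP4 overlapped. DUSP1 had 236 ± 18.6, DUSP2 212 ± 3.03 and DUSP10 41.8 ± 1.12 (SD, n = 2 each).

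Histidine depletion changed this order. DUSP5 became the highest member with 3695 ± 89.0, ahead of DUSP1 with 1875 ± 7.41 and DUSP6 with 1552 ± 26.6 scaled counts per kb (SD, n = 2 each). DUSP10 moved from last place to that just above IER3 with 757 ± 42.0, in a range shared with IER3 at 710.3 ± 57.1, and DUSP2 was last with 241 ± 10.7. After tryptophan depletion DUSP5 also led with 1711 ± 82.6, followed by SPRED1 with 1206 ± 4.50, and DUSP10 was last with 33.8 ± 0.790. Neighbours with overlapping ranges were there IER3 and DUSP6, DUSP1 and SPRY4, and SPRY4 and DUSP4.

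Summed over the 6 phosphatases, the level was 2347 ± 94.4 scaled counts per kb in untreated cells, 8577 ± 150.4 after histidine depletion and 3551 ± 101 after tryptophan depletion (SD, n = 2 each). The sum of SPRY2, SPRY4 and SPRED1 was 2207 ± 50.4, 2145 ± 1.27 and 1959 ± 19.5 in the same order. The phosphatase and Sprouty sums were thus close to each other in untreated cells and far apart after histidine depletion. DUSP5 alone made up 8.81% of the summed level of the 10 genes in untreated cells, 32.3% after histidine depletion and 27.5% after tryptophan depletion.

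**Figure D3:**
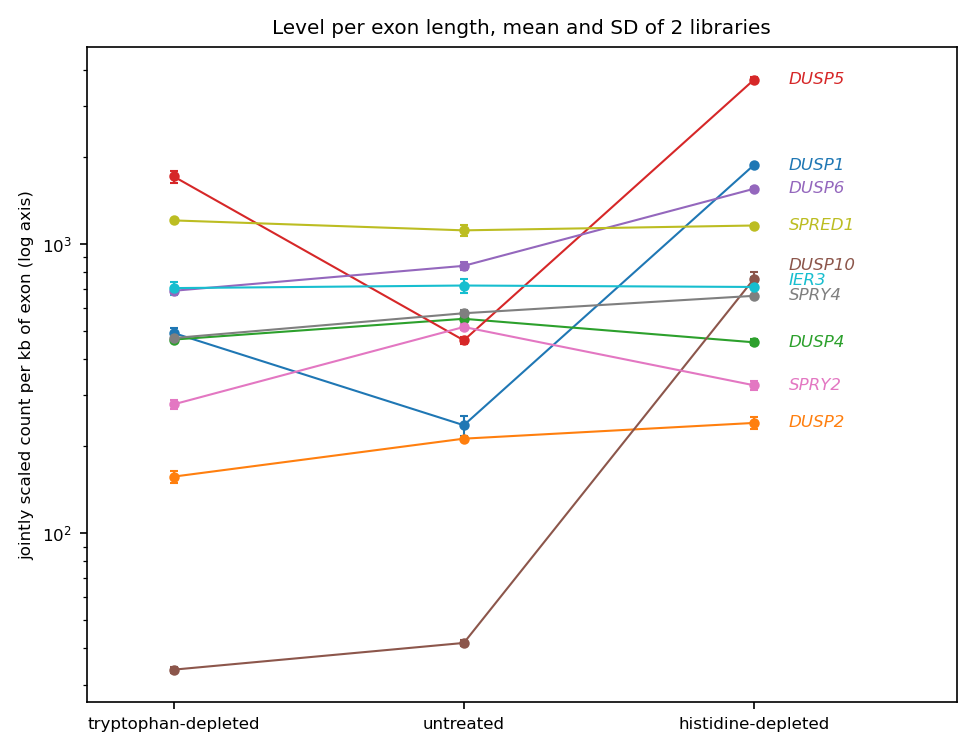
Jointly scaled counts per kb of exon (log axis) for the 10 genes in tryptophan-depleted, untreated and histidine-depleted cells, as mean and SD of 2 libraries, with lines joining the values of a gene. DUSP10 rises from 41.8 in untreated to 757 in histidine-depleted cells, and SPRED1 and IER3 run nearly level.

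The other phosphatase and Sprouty genes, 8 in number, moved in both directions, as tested genes did in general. DUSP9 had at most 1.02 scaled counts in any library and was not tested. Under histidine depletion 4 of the 7 tested genes rose and 3 fell, with a median of 0.59, and under tryptophan depletion 5 rose and 1 fell, with a median of 0.39. Beside these stand 39.1% of all tested genes higher and 38.2% lower under histidine depletion, and 36.1% and 34.8% under tryptophan depletion. SPRY1, a close relative of SPRY2, had a log2 fold change of -1.32 under histidine depletion (limma adjusted p = 2.66e-14) and -0.15 under tryptophan depletion (limma adjusted p = 0.0210). SPRED3 went the other way, with 1.48 and 1.80. DUSP16, a phosphatase of JNK and p38 like DUSP10, had -0.31 under histidine and 0.58 under tryptophan depletion, where DUSP10 had 4.18 and -0.31, the latter not past the threshold. DUSP7, a cytoplasmic ERK phosphatase like DUSP6, rose by 0.63 under histidine and 0.17 under tryptophan depletion, and DUSP8, with 2 pseudogenes of its name, by 0.59 and 0.39. SPRED2 had 0.60 and 0.042, and SPRY3 -0.28 and 0.67, of which the SPRED2 value under tryptophan depletion did not pass the threshold (limma adjusted p = 0.430).

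The relay upstream of the feedback genes was described with a list of 19 genes from Ras adaptors to ERK. Under histidine depletion 12 rose and 5 fell with a median of 0.18, and under tryptophan depletion 8 rose and 5 fell with a median of -0.016. The other 2 and 6 did not pass, and 77.3% and 70.8% of all tested genes passed in either direction. MAP2K1, which encodes MEK, rose from 5489 to 14136 scaled counts under histidine depletion (log2 fold change 1.37, limma adjusted p = 7.98e-18), and other genes on the opposite strand cover 20.5% of its exonic bases. NRAS rose by 0.68. MAPK3, which encodes an ERK kinase, fell from 2650.1 to 1175 (log2 fold change -1.17, limma adjusted p = 1.11e-14), and the scaffold gene KSR1 had -1.0. Under tryptophan depletion the adaptor gene SHC1 (0.96) and the exchange factor gene SOS2 (0.95) rose most, and HRAS (-0.76) and KSR1 (-0.61) fell most.

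Transcripts known to respond to ERK, other than the 10 genes, were described with 14 genes. EPHA4 was at or under 6 scaled counts and was not tested. Under histidine depletion 9 of 13 rose, each by 2-fold or more, and 3 fell, with a median of 1.43, against 39.1% of all tested genes higher, 16.4% higher by 2-fold or more and 38.2% lower. FOSB, an AP-1 subunit gene, went from 619 to 5346 scaled counts (log2 fold change 3.12, limma adjusted p = 5.07e-23) and FOSL1, another, from 2135 to 14701 (2.79, limma adjusted p = 1.40e-23). The ETS factor genes ETV4 and ETV5, which like DUSP6 and SPRY4 are common readouts of ERK, went the other way, with -1.72 (limma adjusted p = 4.03e-18) and -0.46 (limma adjusted p = 1.14e-08). FOS also fell (-0.34, limma adjusted p = 2.12e-05), and EGR1 did not pass the threshold (-0.10, limma adjusted p = 0.147). Among the 9 that rose, EGR3 was low, with 10.5 scaled counts in untreated and 32.3 in histidine-depleted cells. Under tryptophan depletion 7 rose and 2 fell, with a median of 0.21, against 36.1% and 34.8% of all tested genes. JUNB (0.78) and ZFP36 (0.48) rose most, and CCND1 (-0.27) and PHLDA1 (-0.19) fell most.

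DUSP1 and DUSP10 act on JNK and p38, and 12 genes of that branch were described beside them. Under histidine depletion 6 rose and 5 fell with a median of 0.36, and under tryptophan depletion 6 rose and 2 fell with a median of 0.16. The other 1 and 4 did not pass, beside the same 77.3% and 70.8% of all tested genes that did. Genes of the kinases that activate p38 moved apart, with MAP2K3 rising from 6492 to 18348 scaled counts (log2 fold change 1.51, limma adjusted p = 1.55e-18) and MAP2K6 falling from 2191 to 403 (-2.43, limma adjusted p = 1.17e-19). Of the p38 genes, MAPK11 rose (1.38), while MAPK12 (-0.70), MAPK13 (-0.62) and MAPK14 (-0.83) fell. HDAC10, on the same strand, covers 29.7% of the exonic bases of MAPK12. Under tryptophan depletion MAPK11 (0.75) and MAP2K4 (0.59) rose most, and MAP2K6 (-0.30) and MAP2K3 (-0.22) fell most.

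**Figure D4:**
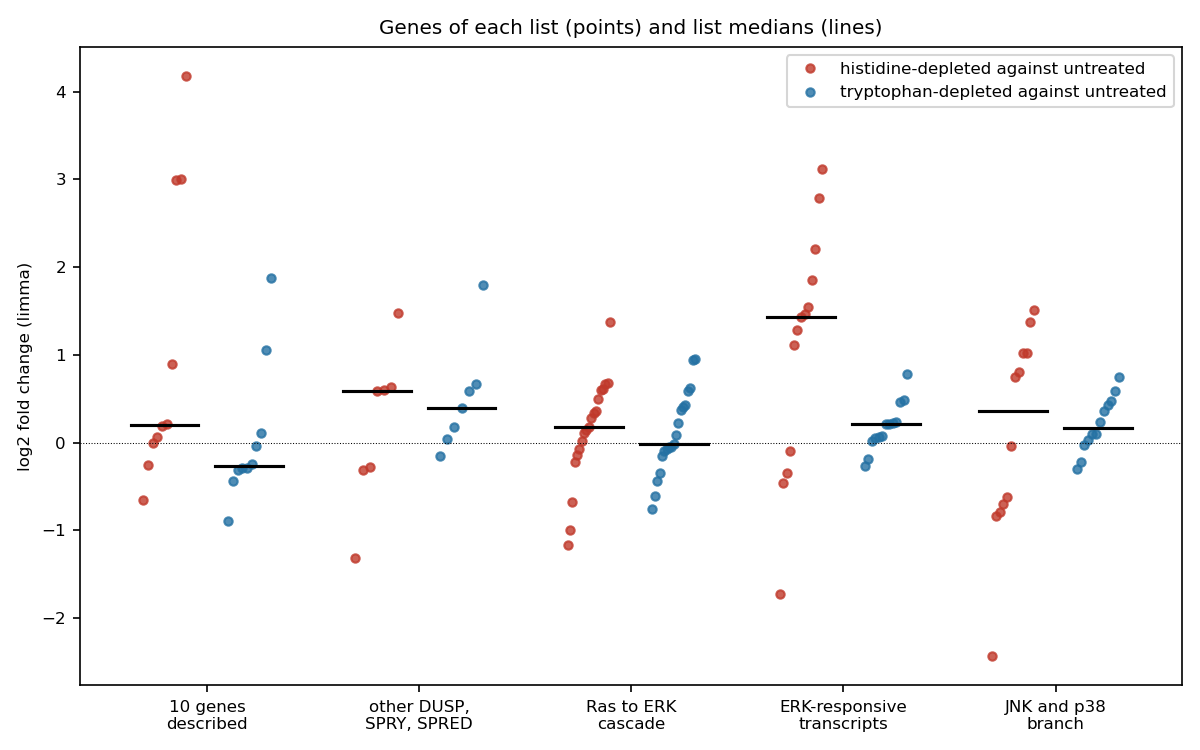
Log2 fold changes against untreated cells (vertical axis) of the genes of each list, with a point for each tested gene and a line for the list's median. The medians of the ERK-responsive transcripts are 1.43 under histidine and 0.21 under tryptophan depletion, and those of the 10 genes described are 0.20 and -0.27.

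Genes with the most similar pattern were sought for DUSP6 and DUSP1 among 11004 other protein-coding genes, by the root-mean-square difference of centred log2 counts over the 6 libraries. For DUSP6 these were KCTD10 (difference 0.0197), UTP25 (0.0234) and S100A2 (0.0250). KCTD10 had 4224 ± 114 scaled counts in untreated, 7811 ± 28.1 in histidine-depleted and 3544 ± 31.9 in tryptophan-depleted cells (SD, n = 2 each). For DUSP1 they were SNAI1 (0.0625), POU2F3 (0.0717) and H2BC12 (0.0765), and SNAI1 had 89.8 ± 8.01, 724 ± 49.6 and 178 ± 1.15 in the same order.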

How the data were processed

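RNA of 6 HT29 samples was analysed, 2 per condition. Per the labels and the study's methods, polyadenylated RNA was made into stranded libraries, reads were aligned with STAR 2.7.10a to GRCh38 and counted on exons with HTSeq 2.0.5 and gencode 38, and the authors deposited the counts divided by DESeq2 size factors, as a normalized signal, with 1 table per depletion. Whether molecular identifiers or strand were used in counting is not given in the sources used here.

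Each value was divided by the step shared by its library, which gave whole reads (within 0.02) for 100% of the values, and both tables gave identical reads for the untreated libraries. Each depletion was tested within its table by limma 3.58.1 (R 4.3.3, mean-variance trend, two-sided), using log2(normalized count + 1) and keeping genes whose mean reached 10. This scale understates changes of low genes. The direct comparison used reads of all 6 libraries scaled by median-of-ratios size factors. Fold changes against untreated cells in that joint fit differed from those given by at most 0.00902 for the 10 genes. The analysis was repeated with a pseudocount of 0.5 or 8, without the filter, with a minimum mean of 50, without the trend, with quantile normalization, with edgeR 4.0.16 and DESeq2 1.42.0 on recovered reads, with a replicate block, with other sets of libraries, and with each library left out. The code was tested on simulated counts. Python 3.11.15 was used for tables and plots.

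The genes and lists were chosen with earlier results of these data known. All 10 members and the other family genes are named. From each further list, the 2 genes that rose most and the 2 that fell most per depletion with a mean of at least 100 in the higher group are named. The p38 genes MAPK12 and MAPK13 and the ERK-responsive genes FOS, EGR1 and EGR3 are named in addition. Similar genes were sought at a mean of at least 100.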

Additional observations from a re-analysis of the deposited data

Results flagged for a closer look

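For 7 of the 10 genes the effect of histidine depletion differed from that of tryptophan depletion in the direct test (limma on all 6 libraries, adjusted over all tested genes), against 76.7% of all tested genes, so the count is near the background. The log2 difference, histidine minus tryptophan depletion, was 4.47 for DUSP10, 1.93 for DUSP1, 1.17 for DUSP6, 1.11 for DUSP5, 0.61 for DUSP2, 0.49 for SPRY4 and 0.22 for SPRY2. For DUSP6 and SPRY4 the effects also had opposite signs, each past the threshold in its own comparison, although for SPRY4 the change under histidine depletion no longer passed with quantile normalization (0.074, adjusted p = 0.140). Both effects share the untreated libraries. The base media also differ between the depletions, so their part cannot be told apart from that of the missing amino acid.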

How the results depend on the processing

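Of 450 log2 fold changes of the 10 genes under an alternative setting, 423 kept their direction and their side of the threshold, 9 gained and 7 lost their call, and 11 changed sign. Counts of genes kept within 1.5 times in 176 of 180 cases. In place of 0, the number of the 10 genes called lower after histidine than after tryptophan depletion was 1 with edgeR (SPRED1). It was also 1 in the fit on the 4 depleted libraries (SPRED1), and 2 with quantile normalization (SPRED1 and DUSP4). The number past 2-fold under tryptophan depletion was between 1 and 2 with each library left out, since DUSP1 had 0.97 without untreated replicate 1.

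Changes of sign were found for SPRED1 under histidine depletion with quantile normalization (-0.18, adjusted p = 0.000382), and for IER3, which passed the threshold in none of these settings. With quantile normalization IER3 had 0.14 under histidine and 0.070 under tryptophan depletion. With single libraries left out it ranged from -0.088 to 0.070 under histidine depletion (positive without histidine-depleted replicate 1, 0.070, and untreated replicate 2, 0.050), from -0.093 to 0.019 under tryptophan depletion (positive without tryptophan-depleted replicate 2, 0.011, and untreated replicate 2, 0.019), and from -0.070 to 0.094 in the direct comparison. The negative values there came when replicate 2 of histidine depletion (-0.070) or of tryptophan depletion (-0.042) was absent, with edgeR (-0.0088) and in the fit on the 4 depleted libraries (-0.0086). SPRED1 passed under histidine depletion without untreated replicate 2 (0.12). The cause of these changes was not tested. Over all settings the number of genes called was between 11708 and 15016 for histidine depletion, 10777 and 12912 for tryptophan depletion and 11811 and 15233 for the direct comparison.

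Replicate numbers are only shared labels here, and the deviations of like-numbered libraries correlated across genes at 0.117 for untreated and histidine-depleted, -0.0527 for untreated and tryptophan-depleted, and -0.104 for both depletions. With a replicate block 14432, 12766 and 14069 genes were called in place of 14130, 12721 and 14006, and DUSP2 passed under histidine depletion (adjusted p = 0.0363). A crossed pairing of the depletions, chosen after seeing the data, gave 14192 calls. With 2 libraries per condition, an interval of a member reflects mainly the spread shared across genes.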
